A study of Mus musculus with 20 samples.

Results

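The comparison concerns the accessible chromatin of antigen-specific non-Tfh CD4 T cells that carry the Tomato mark, set against non-Tfh CD4 T cells without it. The libraries were chosen by their sample titles: the 2 DNase libraries of CXCR5lowPD1lowToma+ cells and the 2 of CXCR5lowPD1lowToma- cells, which are 4 of the 20 libraries of the series. All 4 came from T-bet-Cre mice with a Rosa26 loxP-STOP-loxP tdTomato allele, on a C57BL/6 background. The cells were sorted from draining lymph nodes 16 days after immunization with the AS15 peptide in complete Freund's adjuvant, as cells that bind an AS15 tetramer. Tomato+ and Tomato- cells thus share genotype, immunization, day and tissue, and differ in whether Cre driven by T-bet had ever been active in the cell or its ancestors. The mark is permanent, so a Tomato+ cell may or may not have expressed T-bet at the time of sorting. The labels used here give neither the age of the mice nor the number of animals behind a library, and do not say whether the 2 replicates of a group are different animals. The p-values below therefore measure the spread between libraries, which may be technical only.

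T-bet, encoded by Tbx21, is the T-box transcription factor that directs CD4 T cells to the T helper 1 (Th1) fate and to production of interferon gamma. DNase I cuts DNA most readily where nucleosomes are displaced, at promoters and enhancers, and the positions cut in a library therefore map the regulatory elements that are open in those cells. Single-cell DNase sequencing (scDNase-seq) is a version of the assay for small numbers of sorted cells. Non-Tfh effector cells act outside the B cell follicle and include the Th1 cells of the response, while follicular helper T cells (Tfh), here CXCR5highPD1high, enter it to help B cells. The Tfh DNase libraries, 2 Tomato+ and 2 Tomato-, came from the same kind of mice, tissue and day.

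Polyadenylated RNA of the same non-Tfh sorts, in separate libraries, was read for cell identity. The 6 measured markers of CD4 T cells summed to 3080 and 2626 RPKM (a read count scaled by transcript length and library size) in the 2 Tomato+ libraries, against 2627 and 2570 RPKM in the 2 Tomato- libraries. Tbx21 itself was at 183 and 163 RPKM in Tomato+ cells and at 10.4 and 10.5 RPKM in Tomato- cells, and the 10 Th1 markers that include it summed to 2858 and 2582 RPKM in Tomato+ and to 473 and 551 RPKM in Tomato- cells. Cxcr5, the follicle-homing receptor used in the gate, was at 27.8 and 55.7 RPKM in Tomato+ and at 113 and 98.3 RPKM in Tomato- cells. Pdcd1, which encodes the PD1 of the gate, was at 133 and 183 RPKM in Tomato+ and at 89.9 and 132 RPKM in Tomato- cells. The 7 Tfh markers that include both summed to 267 and 364 RPKM in Tomato+ and to 379 and 399 RPKM in Tomato- cells. The sums of macrophage and monocyte markers and of MHC class II genes were lower in both Tomato+ libraries. Those of B cell markers were slightly higher there. Sums for neutrophils, CD8 T cells and NK cells overlapped between the groups. The 9 measured macrophage and monocyte markers, all above 0 in every library, summed to 165 and 105 RPKM in Tomato+ and to 1303 and 1394 RPKM in Tomato- cells, and the 4 MHC class II genes to 918 and 671 RPKM in Tomato+ and to 3868 and 3287 RPKM in Tomato- cells. The 7 measured neutrophil markers summed to 79.6 and 0.754 RPKM in Tomato+ and to 3.87 and 318 RPKM in Tomato- cells, with Mpo and Elane at 0 throughout, and the 6 B cell markers to 131 and 116 RPKM in Tomato+ and to 102 and 113 RPKM in Tomato- cells. CD8 T cell markers (2 genes) summed to 23.2 and 17.2 RPKM in Tomato+ and to 32.5 and 15.3 RPKM in Tomato- cells, and NK cell markers (3 genes) to 6.61 and 12.9 RPKM in Tomato+ and to 8.83 and 3.62 RPKM in Tomato- cells. In bulk RNA, fewer cells of a type and less RNA per cell cannot be told apart. The part that other cells have in the DNase results was not tested.

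The files give islands, that is, stretches of the genome in which reads lie more densely than the background allows, with a start, an end and a score. Non-Tfh Tomato+ cells had more islands than non-Tfh Tomato- cells. The 2 Tomato+ libraries held 20460 and 21222 islands and the 2 Tomato- libraries 18061 and 14980, a mean of 20841 ± 539 against 16520.5 ± 2179 (SD, n = 2 each). The groups did not overlap, and the difference of 4320.5 islands gave p = 0.333 in an exact permutation test over the 4 libraries, two-sided, which is the smallest p that 2 against 2 can give. The difference was 2780 islands without Tomato- replicate 2, and 2060 among islands that scored at least the median of all 4 libraries. The genome covered did not follow the number of islands. Islands covered 39.8 and 32.9 Mb in the Tomato+ libraries and 35.4 and 36.4 Mb in the Tomato- libraries, so that the Tomato+ libraries were both the highest and the lowest, and the mean difference of 0.414 Mb gave an exact p of 1. Tomato+ replicate 2 combined the most islands with the narrowest ones, with a median width of 1400 bp, while Tomato- replicate 2 combined the fewest islands with the widest, with a median of 2200 bp. Replicate 1 of either group had a median width of 1800 bp. The difference of group means of the median widths, -400 bp, gave an exact p of 0.667, and it was -200 bp without replicate 2 of either group. Islands under 1000 bp made up 15.4% and 27.3% of the Tomato+ islands and 13.4% and 5.61% of the Tomato- islands.

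Read depth is not given by the files, and the lowest score of any island differed between libraries. It was 39.5 and 32.5 in the Tomato+ libraries and 42.3 and 49.2 in the Tomato- libraries, so the libraries with more islands also reached to lower scores. Counts of regions by Tomato state and their coverage in Tfh libraries are therefore given below both with the islands as the authors called them and with the same number of top-scoring islands in each library. Distances, shares per chromosome and counts in windows are given only with the islands as called.

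**Figure D1:**
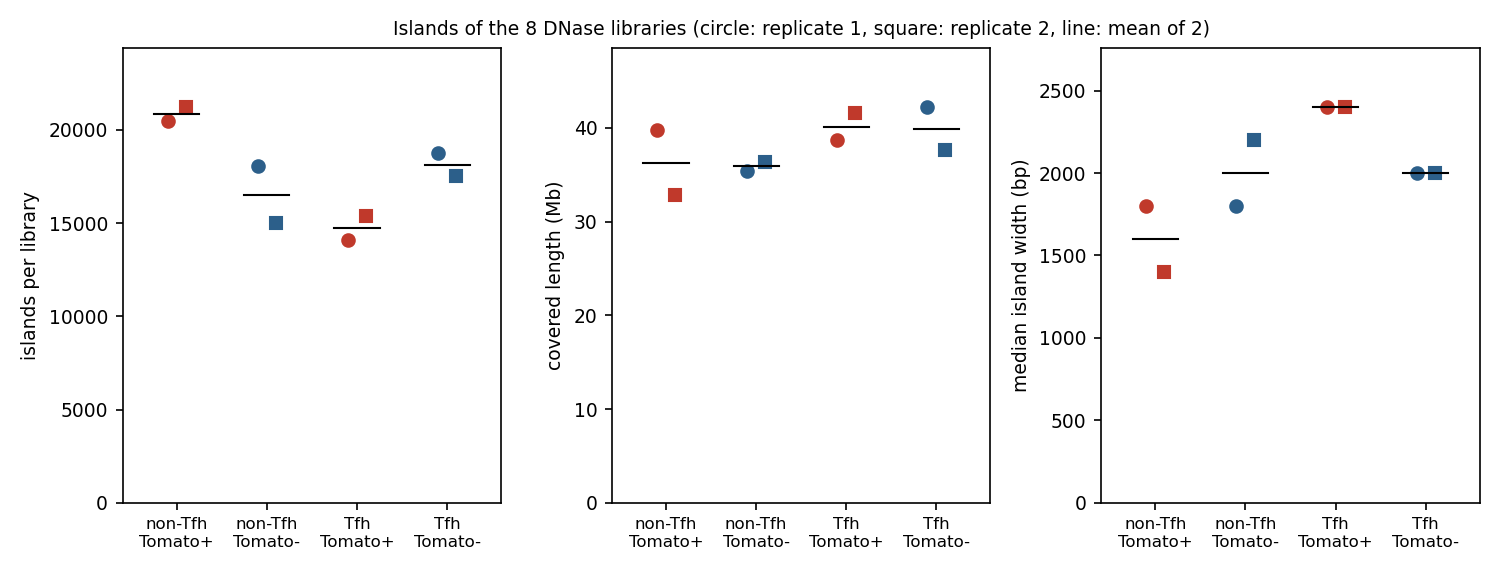
Number of islands, covered length in Mb and median island width in bp of the 8 DNase libraries, by population and Tomato state; each point is a library and each line the mean of 2. The 2 non-Tfh Tomato+ libraries lie above the 2 Tomato- libraries in island number, with 20460 and 21222 against 18061 and 14980, and in Tfh cells the order is the other way round.

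Nearly all strong islands had a counterpart in each of the other libraries. Of the top 25% of islands by score in Tomato+ replicate 1, 99.5% were overlapped by an island of Tomato- replicate 1 and 99.1% by one of Tomato- replicate 2. For Tomato+ replicate 2 these shares were 99.1% and 98.4%. In the other direction, 100% of the top 25% of islands of each Tomato- library were overlapped in each Tomato+ library. The libraries parted at the weak end. Of the lowest 25% of islands of Tomato+ replicate 1, 61.9% were overlapped in Tomato+ replicate 2, against 45.6% in Tomato- replicate 1 and 31.3% in Tomato- replicate 2. The lowest 25% of islands of Tomato- replicate 2 were overlapped more often by Tomato+ libraries, at 80.3% and 77.6%, than by Tomato- replicate 1, at 74.6%. Measured over base pairs, the Jaccard index (shared bases over all bases covered in either library) was 0.524 between the Tomato+ replicates, 0.496 between the Tomato- replicates and 0.457 to 0.494 between libraries of different groups. Among these 4 libraries pairs within a group were thus the most alike, by 0.0321 on average, with an exact permutation p of 0.333 (one-sided), the smallest that 4 libraries allow. The difference was 0.00682 without Tomato+ replicate 2 and 0.0531 without Tomato- replicate 1. Tomato- replicate 2 had a higher index with Tfh Tomato- replicate 2 than with its own replicate.

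Islands of the 4 libraries were merged into 23829 regions wherever they overlapped or touched. All 4 libraries covered 12683 of them (53.2%), with a median width of 3000 bp. A further 2332 regions were covered in both Tomato+ libraries and in neither Tomato- library, which is 9.79% of all regions, and these are called Tomato+ regions below. The mirror class, covered in both Tomato- libraries and in neither Tomato+ library, held 196 regions or 0.823%, called Tomato- regions below. The pairs of 1 Tomato+ and 1 Tomato- library that shared regions with no other library held 135 to 462 regions each, so the Tomato+ pair stood far above every other pair and the Tomato- pair lay within the range of the mixed ones. As a share of the 17390 regions found in both Tomato+ libraries, the Tomato+ regions were 13.4%. As a share of the 13496 regions found in both Tomato- libraries, the Tomato- regions were 1.45%.

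**Figure D2:**
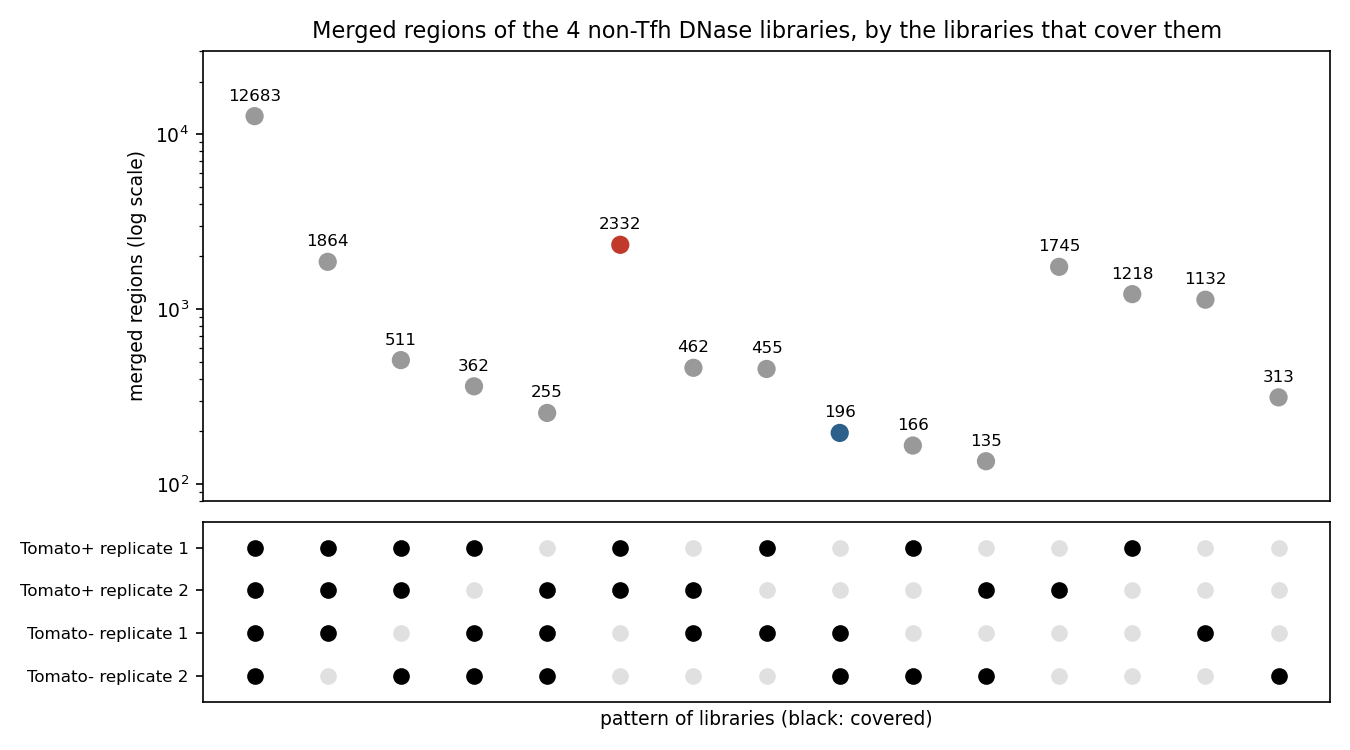
Number of merged regions, on a log scale, for each pattern of the 4 non-Tfh DNase libraries that cover them (black dots below). The pattern of both Tomato+ libraries alone holds 2332 regions (red) and that of both Tomato- libraries alone 196 (blue).

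The size of this imbalance depended on the unequal number of islands and on the overlap that counts as covered. With the 14980 top-scoring islands of each library, 994 regions were in both Tomato+ and neither Tomato- library and 762 in both Tomato- and neither Tomato+ library, out of 18755. Of these 994 regions, 740 (74.4%) were also Tomato+ regions with all islands, while of the 762 only 110 (14.4%) were also Tomato- regions with all islands. In the full set, the region that holds each of the remaining ones also holds an island of a Tomato+ library. With only the islands that scored at least the median of all 4 libraries, the counts were 1241 and 108.

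Tomato+ regions were narrow, and most scored low within their libraries. Their merged width had a median of 1600 bp. The score percentile of a region is the share of the islands of a library that score no higher than the best island of the region there. By it, the median Tomato+ region stood at the 24.3 and 28.9 percentile of island scores in the Tomato+ replicates. The median Tomato- region stood at the 18.3 and 12.1 percentile in the Tomato- replicates, with a median merged width of 2500 bp. Above the 50 percentile in both replicates lay 181 of the 2332 Tomato+ regions and 0 of the 196 Tomato- regions. Above the 75 percentile lay 13 and 0. Percentiles of the 2 classes come from lists of different length with different lowest scores, so they describe each class within its own libraries and set no order between the classes. The median scores themselves were 60.5 and 54.3 for Tomato+ regions and 54.6 and 57.4 for Tomato- regions, which overlap.

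**Figure D3:**
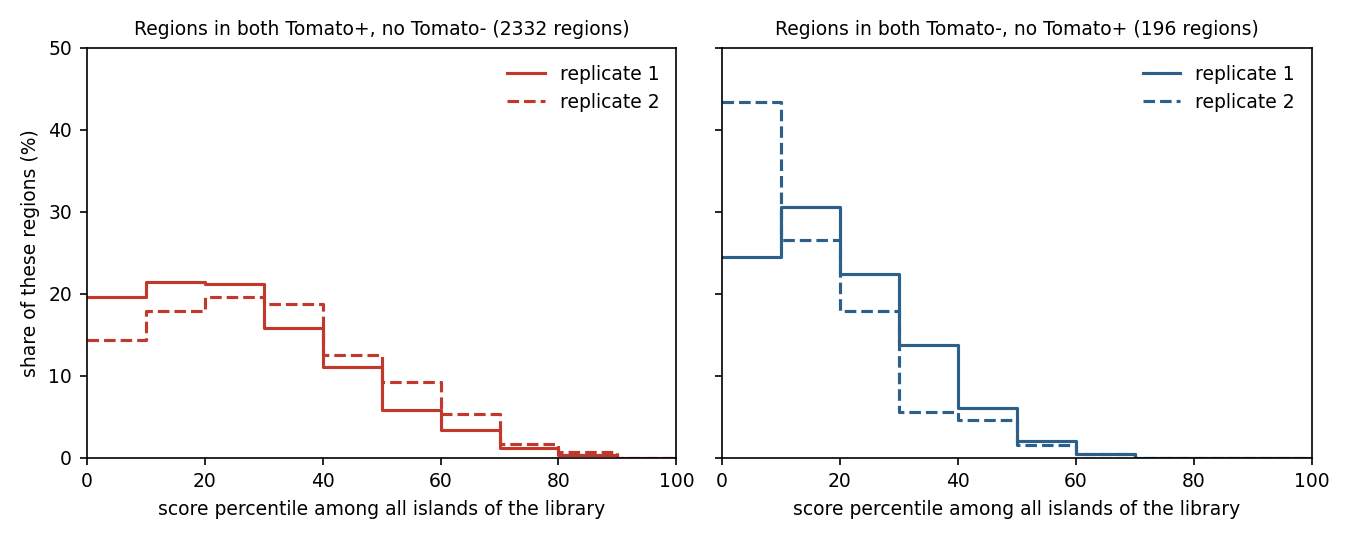
Distribution of score percentiles, within the library, of the 2332 regions in both Tomato+ and neither Tomato- library (left) and of the 196 regions in both Tomato- and neither Tomato+ library (right), as a share of these regions per 10 percentile points. Most regions lie below the 50 percentile, and 181 Tomato+ and 0 Tomato- regions lie above it in both replicates; the island lists differ in length, so the panels are read each by itself.

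The 8 Tomato+ regions with the highest score percentile in their lower replicate were distributed over 6 chromosomes. No gene annotation of the mm9 build was used here, so they are given by position, with starts and ends as the files have them. The first was chr4:102530600-102533599, at the 87.5 and 84.9 percentile in the Tomato+ replicates. It was followed by chr5:136012800-136015199, at 83.1 and 83.4, and by chr1:54717400-54718799, at 82.2 and 89.0. These 3 regions, which lie in no Tomato- library, thus outranked more than 4 in 5 islands of either Tomato+ library. The next were chr4:128696000-128697599 (82.0 and 81.1 percentile), chr5:53784400-53787599 (82.0 and 80.9) and chr13:45960800-45963199 (80.5 and 82.0). The last of the 8 were chr14:66839000-66840399 (80.7 and 80.5) and chr7:26491800-26493799 (79.7 and 83.0). All 8 stayed in both Tomato+ and neither Tomato- library with equal numbers of islands. The 8 Tomato- regions chosen by the same rule likewise stayed in their class. Regions chosen for high percentiles keep their islands under such a cut, so neither result is a test of them. Of the 8 Tomato+ regions, 7 were covered in at least 1 Tfh Tomato+ library, 1 of them (chr14) also in Tfh Tomato- replicate 1. The other, chr5:53784400-53787599, was covered in no Tfh library.

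Among Tomato- regions, whose percentiles refer to the shorter Tomato- lists, the first by the same rule was chr7:56888000-56892599, at the 43.8 and 52.6 percentile in the Tomato- replicates, and the second chr10:3132600-3135999, at 44.4 and 40.8. The third was chr17:35555000-35558799, at 39.0 and 48.5. The 8 strongest Tomato- regions were all covered in at least 1 Tfh library, and 4 of them in all 4.

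Tomato+ regions lay near other open chromatin more often than Tomato- regions did. The median distance to the nearest region covered in all 4 libraries was 14.6 kb for Tomato+ regions, 41.9 kb for Tomato- regions and 20.8 kb for regions covered in exactly 1 library. A shared region lay within 10 kb of 40.4% of the Tomato+ regions, against 19.4% of the Tomato- regions. Tomato+ regions were spread over the genome: on the 19 autosomes they made up 8.18% (chromosome 3) to 11.6% (chromosome 1) of the merged regions, and 10.3% on the X chromosome.

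Some stretches held several Tomato+ regions. Of 8845 windows of 100 kb with at least 1 merged region, 1752 held a Tomato+ region, 111 held at least 3 and 11 held at least 5. For Tomato- regions, 196 in all against 2332 Tomato+ regions, the same counts were 194, 0 and 0. The window chr12:25900001-26000000 held 6 Tomato+ regions among its 10 merged regions, at the 4.34 to 62.7 percentile in Tomato+ replicate 1 and the 28.0 to 69.9 percentile in replicate 2. The window chr13:45900001-46000000 also held 6, among 12 merged regions, and 1 of them was the chr13 region named above. There the strongest region lay 800 bp from its neighbour at chr13:45958400-45959999, so that 3 Tomato+ regions 1200 to 2400 bp wide stood between 45956600 and 45963199. With 5 Tomato+ regions each followed chr1:155100001-155200000, chr2:90300001-90400000 and chr5:53800001-53900000. In the chr1 window the strongest Tomato+ region, chr1:155146600-155148799, reached the 73.1 and 86.8 percentile in the Tomato+ replicates and was covered in no Tfh library. The chr2 window held 7 merged regions, none of them covered in all 4 libraries. The chr5 window begins shortly after the chr5:53784400-53787599 region named above.

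The Tfh libraries, which had no part in choosing these regions, were then read at the same positions. Tfh Tomato+ libraries had fewer islands than Tfh Tomato- libraries (14084 and 15374 against 18742 and 17531), opposite to non-Tfh cells. Over all 2332 Tomato+ regions, 13.4% and 20.4% were covered in the 2 Tfh Tomato+ libraries and 22.3% and 18.4% in the 2 Tfh Tomato- libraries, groups that overlap (difference -3.47 points, exact permutation p = 0.667). Without Tfh Tomato+ replicate 1 the difference was 0.0429 points. With only the islands of at least the median score of all 8 libraries, the regions were chosen anew. The difference was then 2.97 points over 1244 regions. For comparison, 57.1% and 62.1% of all merged regions were covered in the Tfh Tomato+ and 68.9% and 67.1% in the Tfh Tomato- libraries. Of the Tomato+ regions, 1386 (59.4%) were covered in no Tfh library at all. This share was 21.0% for all merged regions and 58.1% for regions covered in exactly 1 non-Tfh library. Of the 196 Tomato- regions, 30.6% and 37.8% were covered in the Tfh Tomato+ libraries and 66.3% and 62.2% in the Tfh Tomato- libraries, a difference of -30.1 points between groups that did not overlap (exact permutation p = 0.333, the smallest possible). With islands of at least the median score and regions chosen anew, it was -7.80 points over 109 regions (exact permutation p = 0.667). With the islands as called, other classes leaned the same way. The difference was -18.7 points for regions covered in 1 Tomato- library only and -12.3 points for regions covered in exactly 1 non-Tfh library. It was -8.38 points for all merged regions.

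The stronger Tomato+ regions were then read apart from the weaker ones. Among the 181 above the 50 percentile in both Tomato+ replicates, 32.0% and 48.1% were covered in the Tfh Tomato+ libraries, against 17.7% and 12.7% in the Tfh Tomato- libraries. Here the Tfh groups did not overlap, the difference was 24.9 points, and the exact permutation p over the 4 Tfh libraries was 0.333, the smallest possible. With 14084 islands in each library the regions were chosen anew by the same rule, and the difference was 41.2 points over 74 regions. With islands of at least the median score of all 8 libraries it was 20.8 points over 118 regions. Of these 181 regions, 25 (13.8%) were covered in both Tfh Tomato+ and neither Tfh Tomato- library, and 0 the other way round. Over all 2332 Tomato+ regions these counts were 45 (1.93%) and 65 (2.79%). Over all 23829 merged regions they were 154 (0.646%) and 915 (3.84%). The share covered in Tfh Tomato+ libraries was 10.8% and 16.8% for the 1473 regions up to the 25 percentile, 14.0% and 20.9% for the 678 regions from there to the 50, 30.4% and 45.8% for the 168 up to the 75, and 53.8% and 76.9% for the 13 above it, a class too small to weigh alone. In Tfh Tomato- libraries the same classes gave 24.4% and 19.4%, 19.0% and 17.7%, 17.9% and 13.7%, and 15.4% and 0%. Coverage in Tfh Tomato+ cells thus was higher in each stronger class and coverage in Tfh Tomato- cells was lower.

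**Figure D4:**
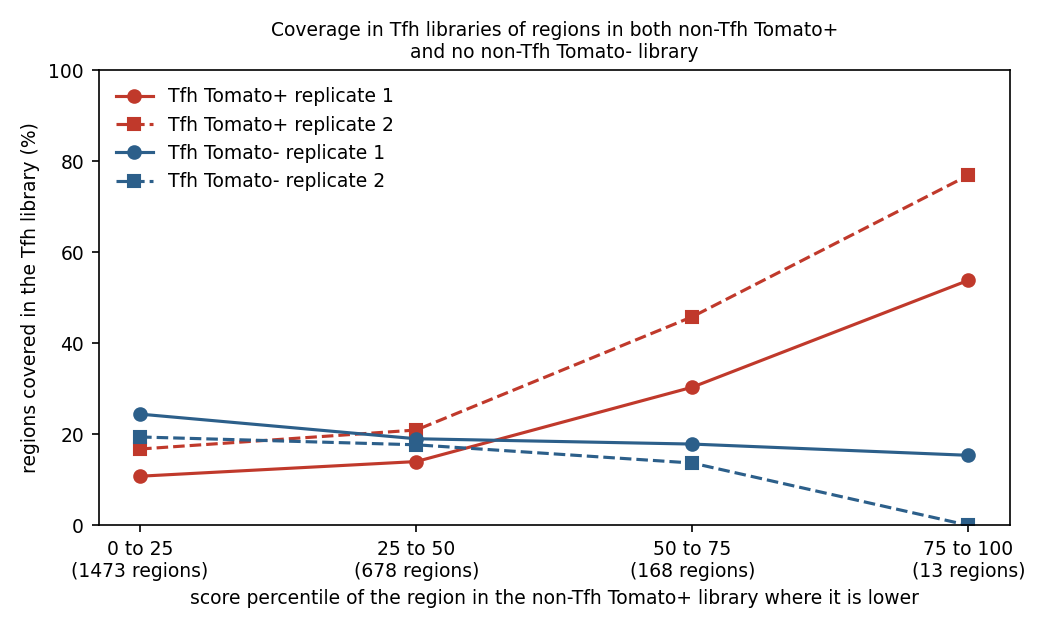
Share of the Tomato+ regions (both non-Tfh Tomato+ and neither non-Tfh Tomato- library) covered in each of the 4 Tfh libraries, by the score percentile of the region in the non-Tfh Tomato+ library where it is lower; the number of regions per class is under the axis. In the 168 regions of the 50 to 75 percentile class the Tfh Tomato+ libraries covered 30.4% and 45.8% and the Tfh Tomato- libraries 17.9% and 13.7%.

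With the number of islands made equal at 14084 in all 8 libraries, the Tfh libraries separated by Tomato state in both classes and, by a smaller margin, over all regions. Of 940 regions in both non-Tfh Tomato+ and neither non-Tfh Tomato- library, 27.8% and 31.1% were covered in the Tfh Tomato+ libraries and 13.2% and 13.9% in the Tfh Tomato- libraries. Of 682 regions in both non-Tfh Tomato- and neither non-Tfh Tomato+ library, 54.4% and 51.9% were covered in the Tfh Tomato+ and 63.2% and 63.8% in the Tfh Tomato- libraries. Of all 17618 merged regions, 73.0% and 74.2% were covered in the Tfh Tomato+ and 71.7% and 72.8% in the Tfh Tomato- libraries, a difference of 1.30 points. Among the 940, 72 were in both Tfh Tomato+ and neither Tfh Tomato- library and 2 the other way round. Among the 682 the counts were 8 and 43, and over all merged regions 323 and 201. The differences of 15.9, -10.3 and 1.30 points each gave an exact p of 0.333, the smallest possible.

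The 12683 regions covered in all 4 non-Tfh libraries allow a comparison of strength where an island is present in every library. Within this set the regions of each library were ranked by score, so that each library has the same list. As a description across regions, the normal scores of these ranks correlated at 0.913 between the Tomato+ replicates, 0.869 between the Tomato- replicates and 0.798 to 0.843 between groups (Pearson's r, n = 12683 regions, which are not independent replicates). No region passed limma's moderated test of rank at an adjusted p below 0.05 (percent called 0), and the smallest adjusted p was 0.0814. At an unadjusted p below 0.05 there were 1841 regions, or 14.5%, of which 1017 ranked higher and 824 lower in Tomato+ cells. The groups did not overlap for 2707 regions that ranked higher in both Tomato+ than in both Tomato- libraries (21.3%) and for 3237 that ranked lower (25.5%).

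Large differences in rank lay mostly on the Tomato+ side. A mean percentile at least 30 points higher in Tomato+ libraries, with groups that did not overlap, was seen for 436 regions (3.44%), and one at least 30 points lower for 152 (1.2%). At 50 points the counts were 90 (0.71%) and 2 (0.0158%). The largest differences in mean percentile were 84.5 and -51.4 points, neither of them called. Of the 90 regions, 81.1% and 91.1% were covered in the Tfh Tomato+ libraries and 67.8% and 62.2% in the Tfh Tomato- libraries, whereas of all 12683 regions 89.3% and 93.2% were covered in the Tfh Tomato+ and 95.2% and 95.2% in the Tfh Tomato- libraries.

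**Figure D5:**
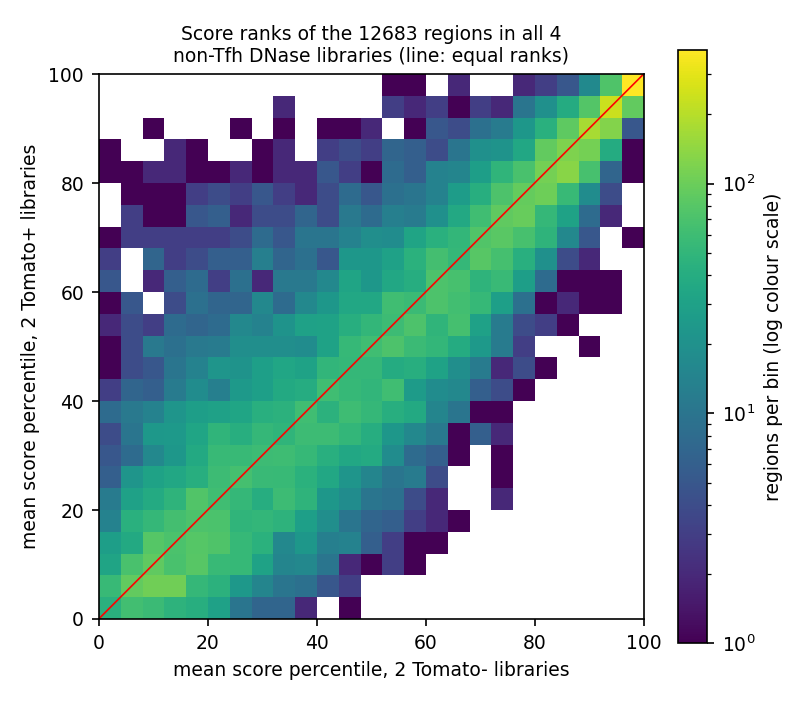
Mean score percentile of the 12683 regions covered in all 4 non-Tfh libraries, in the 2 Tomato+ libraries (vertical axis) against the 2 Tomato- libraries (horizontal axis); colour gives the number of regions per bin on a log scale. Regions far from the line of equal ranks lie mainly above it, where 90 regions differ by at least 50 points, against 2 below it.

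The region with the largest rank difference was chr1:40106000-40113399. It stood at the 85.7 and 84.8 percentile of the shared regions in the Tomato+ libraries, against 0.292 and 1.32 in the Tomato- libraries, a difference of 3.54 ± 0.25 (SE) in normal scores (limma adjusted p = 0.0814). Without Tomato+ replicate 1 this rank difference was 2.24 (limma adjusted p = 0.424), and the adjusted p ran from 0.0753 to 0.486 over the alternatives. Islands covered 6800 and 5600 bp of it in the Tomato+ libraries, in 2 islands each, and 800 and 600 bp in 1 island in the Tomato- libraries. It was also the region with the largest difference of covered width on the high side, 3.15 ± 0.28 on the log2 scale (limma adjusted p = 0.760), although without Tomato+ replicate 1, with islands merged anew, this width difference was -0.21. The next was chr2:30106400-30109999, at the 61.0 and 51.5 percentile in Tomato+ and at 0.237 and 0.457 in Tomato- libraries. Both were covered in 1 Tfh library. The third, chr2:152729200-152734199, stood at 83.1 and 83.7 in Tomato+ and at 2.75 and 4.40 in Tomato- libraries. Further regions on this side were chr19:53874400-53876799 (66.2 and 65.7 in Tomato+, 2.54 and 0.591 in Tomato- libraries) and chr7:87543000-87551399 (89.4 and 89.3 in Tomato+, 2.96 and 20.3 in Tomato- libraries). Both were covered in all 4 Tfh libraries. Among the 10727 regions found in all 8 libraries, the chr7 region stood at the 59.0 and 53.1 percentile in Tfh Tomato+ and at 28.1 and 16.0 in Tfh Tomato- libraries, and the chr19 region at 25.2 and 18.2 in Tfh Tomato+ and at 3.92 and 8.40 in Tfh Tomato- libraries. In the sixth, chr2:166489600-166492599, 1 Tomato- library stood far from the other (84.1 and 88.5 in Tomato+, 0.410 and 37.0 in Tomato- libraries), and its difference of 2.59 in normal scores became 1.40 without Tomato- replicate 1.

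On the low side the region with the largest difference was chr14:11991600-11995199, at the 0.426 and 0.0631 percentile in the Tomato+ libraries and at 23.0 and 22.9 in the Tomato- libraries (-2.20 ± 0.26 in normal scores, limma adjusted p = 0.0937). It was followed by chr11:75826800-75829799 (8.52 and 0.00788 in Tomato+, 50.6 and 11.6 in Tomato- libraries), whose difference of -2.07 became -0.72 without Tomato+ replicate 2 and -3.41 without Tomato+ replicate 1, and chr19:34578400-34580599 (0.434 and 1.11 in Tomato+, 40.9 and 25.2 in Tomato- libraries). Of the 6 regions with the largest differences in each direction, the 6 on the high side reached the 51.5 percentile or more in both Tomato+ libraries. None of the 6 on the low side stood above the 25.2 percentile in both Tomato- libraries. Tfh percentiles were read for those on the low side found in all 8 libraries. The chr14 region stood at 33.9 and 10.4 in Tfh Tomato+ and at 18.8 and 41.8 in Tfh Tomato- libraries. The chr11 region stood at 4.01 and 6.12 against 7.39 and 36.7. For chr9:77653800-77655399 the values were 17.5 and 1.42 against 5.92 and 8.42. For chr1:182177600-182183999 they were 26.2 and 0.755 against 64.4 and 15.2. The Tfh groups overlapped in all of these but chr11.

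The direction of rank differences was also read in the Tfh libraries, over regions covered in all 8. Of 662 regions that ranked higher in non-Tfh Tomato+ cells at an unadjusted p below 0.05, 514 (77.6%) ranked higher in Tfh Tomato+ than in Tfh Tomato- cells. Of 646 that ranked lower, 235 (36.4%) did so. Over all 10727 regions the share was 48.1%.

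Covered width within shared regions followed the width of islands in each library. The median shared region was covered over 2000 and 1600 bp in the Tomato+ libraries and over 2000 and 2200 bp in the Tomato- libraries, and 5.63% and 7.75% of shared regions were split into 2 or more islands in the Tomato+ libraries, against 4.60% and 2.59% in the Tomato- libraries. No region passed limma's test of log2 covered width (percent called 0, smallest adjusted p 0.760), and 822 (6.48%) had an unadjusted p below 0.05, 160 wider and 662 narrower in Tomato+ cells. The groups did not overlap for 906 regions wider in both Tomato+ libraries (7.14%) and 2598 narrower (20.5%); after the median of each library was subtracted the split turned round, to 2413 wider and 1728 narrower regions. The median difference over all shared regions was -0.17 on the log2 scale. In the same direction, the regions with large differences included chr5:99676000-99678599, covered over 200 bp in each Tomato+ library against 2000 and 1600 bp in the Tomato- libraries, and chr8:88222400-88225599, covered over 400 bp in each Tomato+ and over 3000 bp in each Tomato- library. In the opposite direction, chr15:66635000-66639799 was covered over 3400 and 4400 bp in the Tomato+ libraries, against 600 and 1200 bp in the Tomato- libraries, though without Tomato+ replicate 2, with islands merged anew, this log2 width difference of 2.19 became -0.085.

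The broadest island of each of the 8 DNase libraries lay in the same stretch, at chr11:3026800-3100199 in 6 of them. It was called as chr11:3026800-3099999 in non-Tfh Tomato+ replicate 2 and as chr11:3022200-3100199 in non-Tfh Tomato- replicate 1.

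Between the populations, the Tomato difference in island number was 4320.5 in non-Tfh and -3407.5 in Tfh cells. The difference of these, 7728 islands, gave p = 0.0556 when Tomato labels were permuted within each population (exact permutation test, two-sided, 36 arrangements), the smallest p this design can give. Among islands that scored at least the median of all 8 libraries the difference was 2753.5 (exact p = 0.111). For covered length the difference was 0.210 Mb (exact p = 0.944). In the Tfh libraries merged by themselves, 140 of 21075 regions (0.664%) were in both Tomato+ and neither Tomato- library and 1191 (5.65%) in both Tomato- and neither Tomato+ library.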

How the data were processed

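Chromatin accessibility was measured by scDNase-seq in 8 libraries, of which the 4 non-Tfh libraries are compared here. Per the names of the deposited files, duplicates were removed and islands were called per library (window 200 bp, gap 400 bp, E-value 1). The score of each island is the authors' own value, and serves only for ranks and thresholds, never as a level. CASAVA 2.18, Bowtie2, SICER 1.1, edgeR and build mm9 are named in the submitters' processing notes, without their roles, and the read depth of the DNase libraries is unknown. Deposited RPKM of 4 non-Tfh RNA libraries (18177603 to 24937013 reads over 29257 transcript rows, from the deposited counts) were read as levels for the transcript row of each symbol with the most reads.

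Groups came from sample titles. Overlapping or touching islands were merged, and 1 bp counted as covered. Starts and ends are those of the files and may be off by 1 base, since their first number is not defined there. Single values were tested by exact permutation over libraries. Ranks of summed island scores (as normal scores) and log2 covered widths of shared regions were fitted with limma 3.58.1 in R 4.3.3, with Benjamini-Hochberg adjustment over all 12683 regions, and the code was tested on simulated data. Alternatives were a score minimum, equal island numbers, other overlaps and merging, the highest island score, centred widths, a fit of 8 libraries, the replicate number as a block, and leaving out each library. Regions named were the 8 strongest Tomato+ and Tomato- regions, the 6 largest differences in rank and width each way among regions whose groups do not overlap, the 5 windows of 100 kb with the most regions, and the broadest islands; some are summarised. The comparison, the marker lists and the rules were chosen with earlier results of these data known. The readings of strong regions, of rank differences of at least 30 or 50 points and of their direction in Tfh cells, of distances and of the net count across populations were added after values were seen. No genome or annotation of mm9 was used, so genes, motifs and sequences at the regions were not analysed here.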

Additional observations from a re-analysis of the deposited data

Results flagged for a closer look

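The Tomato difference in island number ran in opposite directions in the populations. Both non-Tfh Tomato+ libraries had more islands than both Tomato- libraries, and both Tfh Tomato+ libraries had fewer, a difference between populations of 7728 islands (exact permutation p = 0.0556, the smallest possible). With islands of at least the median score it was 2753.5 (exact p = 0.111). The same held for regions found in both libraries of one Tomato state and neither of the other: the count for Tomato+ less that for Tomato- was 2136 in non-Tfh and -1051 in Tfh cells, a difference of 3187 (exact p = 0.0556), and 1350 with islands of at least the median score (exact p = 0.0556). With 14084 islands in each library these counts were 258 and 69, a difference of 189 (exact p = 0.333).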

How the results depend on the processing

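With equal island numbers the counts of Tomato+ and Tomato- regions were 994 and 762. They were 1241 and 108 with a score of at least the median of all islands, and 2087 and 1011 with at least 50% of a region covered. Leaving out 1 library gave 2922 to 4247 Tomato+ regions (4209 and 3616 with replicate 1 or 2 of Tomato+ left out, 4247 with replicate 1 of Tomato- left out) and 452 to 1346 Tomato- regions (564 and 452 with replicate 1 or 2 of Tomato+ left out, 518 and 1346 with replicate 1 or 2 of Tomato- left out), since fewer libraries must then match. The difference in covered length, 0.414 Mb, became -4.46 Mb with equal numbers and ran from -3.02 (without Tomato+ replicate 1) to 3.85 Mb with 1 library left out. That between populations, 0.210 Mb, became -0.474 Mb with the score minimum and -9.89 Mb with equal numbers, and ran from -3.23 to 3.65 Mb with 1 library left out. Tfh coverage of the Tomato+ regions (difference -3.47 points) became 2.97 with the score minimum and 15.9 with equal numbers, where regions were chosen anew. The difference ran from -6.99 to 0.0429 (without Tfh Tomato+ replicate 1) with 1 Tfh library left out. For Tomato+ regions above the 50 percentile it ran from 16.9 to 32.9. The fit with the replicate number as a block called 0 regions by rank and 0 by width, with 1706 and 495 at an unadjusted p below 0.05. The numbers were not shown to pair the samples: deviations of same-numbered libraries correlated at -0.0684 for ranks and -0.0116 for widths. All other limma fits called 0 too, with 804 to 2198 regions at an unadjusted p below 0.05 for rank and 389 to 1421 for width. With 1 library left out, islands were merged anew and the lone library of its group was assumed to vary like the other group. Of 181 differences of named shared regions under alternatives, 179 kept their direction. The regions were chosen for large differences without overlap in these same libraries, so this count does not test them. A named region no longer found in every library of an alternative gave no difference there. With the score minimum this was so for all regions named by rank and for most named by width. The width difference of chr1:40106000-40113399 ran from -0.21 (without Tomato+ replicate 1) to 3.36 with 1 library left out, and that of chr15:66635000-66639799 from -0.085 (without Tomato+ replicate 2) to 2.69. Of the strongest 8 regions of each class, 8 Tomato+ and 0 Tomato- regions remained with the score minimum. With equal numbers 8 and 8 remained, and with at least 50% covered 7 and 4. The regions were chosen by score, so the results with the score minimum and with equal numbers followed from their scores and test nothing further. The causes were not tested. Depth is unknown, so a region without an island is not shown to be closed, and 2 libraries a group cannot reach an exact permutation p under 0.333.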
